A study of Mus musculus with 9 samples.

Results

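Small nucleolar RNAs (snoRNAs) and the related small Cajal body RNAs (scaRNAs) were followed in RNA that came down with phosphorylated UPF1 (p-UPF1) from activated mouse B cells. Members were taken by name alone, as every gene of the count table whose symbol began with Snord, Snora or Scarna and a number. This gave 123 of 27179 genes, of which 76 were C/D box snoRNAs (Snord), 38 were H/ACA box snoRNAs (Snora) and 9 were scaRNAs (Scarna). UPF1 is an RNA helicase of nonsense-mediated mRNA decay, and its phosphorylated form is found on RNAs to which decay factors are recruited.

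The study sequenced 9 libraries, 3 each of the precipitate of a p-UPF1 antibody, of the precipitate of normal rabbit IgG and of the lysate (input). All 3 groups were prepared from spleen cells of wild-type mice that lacked CD43, were labelled as B cells and had been cultured for 72 h with CD40L at 5 ug/mL, anti-IgM at 10 ug/mL and IL-4 at 20 ng/mL. The methods of the study name an antibody to CD40 instead of CD40L, and describe no selection step for these libraries, although the labels give polyA RNA. No further allele is given. The mice of the study were age-matched, of both sexes and 8 to 16 weeks old, and whether animals were pooled for these libraries is not given in the sources used here.

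Most snoRNAs of mammals are cut out of introns of host genes and work as ribonucleoproteins in the nucleolus. C/D box snoRNAs carry fibrillarin and guide 2′-O-methylation of ribosomal RNA (rRNA), whereas H/ACA box snoRNAs carry dyskerin and guide pseudouridylation. A few, such as Snord22, Snora73a and Snord118, act in the cleavage of precursor rRNA rather than as guides, and scaRNAs direct the same modifications on spliceosomal RNAs in Cajal bodies.

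The sequences of 7 members are shown because they span the range of behaviour described below, from snoRNAs that were far lower in p-UPF1 than in IgG libraries (Snord104, Snord87, Snora44) to one that stood at similar levels in both (Snord96a). They were read from the GRCm38.p6 genome at positions of the RefSeq annotation and are written 5′ to 3′ on the strand of the gene. Capitals mark the C box (TGATGA within the first 25 bases), the D box (CTGA within the last 15 bases) or the ACA box (ACA within the last 8 bases). Snord22 lies at chr19:8725866-8725991 (plus strand) in Snhg1, Snord47 at chr1:161038092-161038156 (plus) in Gas5 and Snord87 at chr1:9942470-9942543 (minus) in Snhg6. Snord104 lies at chr11:106500991-106501063 (plus) in Gm36220 and Snord96a at chr11:48802033-48802109 (plus) in Rack1. Snora73a lies at chr4:132352775-132352979 (minus) in Snhg3 and Snora44 at chr4:132309953-132310069 (plus) in Snhg12.
Snord22: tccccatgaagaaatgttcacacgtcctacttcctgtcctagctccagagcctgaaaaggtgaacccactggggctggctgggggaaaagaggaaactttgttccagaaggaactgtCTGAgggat
Snord47: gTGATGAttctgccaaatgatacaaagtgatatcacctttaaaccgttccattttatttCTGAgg
Snord87: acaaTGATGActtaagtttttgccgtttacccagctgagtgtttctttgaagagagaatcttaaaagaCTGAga
Snord104: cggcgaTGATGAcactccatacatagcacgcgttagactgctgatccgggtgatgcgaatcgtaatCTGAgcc
Snord96a: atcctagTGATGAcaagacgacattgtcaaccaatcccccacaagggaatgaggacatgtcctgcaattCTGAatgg
Snora73a: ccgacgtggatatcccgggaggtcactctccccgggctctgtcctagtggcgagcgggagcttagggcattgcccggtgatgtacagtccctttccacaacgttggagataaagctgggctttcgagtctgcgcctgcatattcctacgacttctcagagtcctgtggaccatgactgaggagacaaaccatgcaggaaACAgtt
Snora44: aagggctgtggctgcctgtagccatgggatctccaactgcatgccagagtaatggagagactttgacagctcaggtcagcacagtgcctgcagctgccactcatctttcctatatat

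The names and the letters of these boxes went together. A D box was found in 74 of the 76 Snord genes (97.4%) and in 2 of the 38 Snora genes (5.3%). An ACA box was found in 36 Snora genes (94.7%) and in 3 Snord genes (3.9%). The full TGATGA of the C box was found in 27 Snord genes (35.5%) and in 0 Snora genes. Windows of the same lengths in 32851 RefSeq promoters held the C box in 0.47%, the D box in 6.8% and the ACA box in 7.04%. Of the sequences shown, Snord22 had a D box without the exact C box, and the annotated end of Snora44 held no ACA. The median annotated length was 68 bases (range 28 to 221) for C/D box and 120.5 bases (range 56 to 205) for H/ACA box snoRNAs. A match in these windows describes the letters only.

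The members took up few reads. Libraries held 23251890 to 24802119 counts for p-UPF1, 17372510 to 18550508 for IgG and 19873687 to 24945286 for input, and between 88 and 95 of the 123 members had a count in any one library. Across all 9 libraries, 106 members had at least 1 count and 17 had none. The filter on low counts kept 65 members (44 C/D box, 21 H/ACA box and no scaRNA) of 13129 genes tested, with 65 to 2704 counts each, and the highest total of a member left out was 108. Of the 65, 37 passed in every group, 10 passed only through the IgG libraries, 8 only through IgG and p-UPF1 libraries and 10 in another way. A member that passed only where it was high was selected for a difference in that direction, so counts over tested members describe those members and not all snoRNAs. Of the members named below, Snord87, Snord33 and Snord14d passed only through IgG libraries, Snord55, Snord58b, Snord34 and Snord35a only through IgG and p-UPF1 libraries, and Snord104 and Snord95 only through IgG and input libraries. Of the 37 that passed in every group, 37 were higher in IgG than in input libraries (100%, beside 18.2% of all genes tested) and 31 were lower in p-UPF1 than in IgG libraries (83.8%, beside 42.2%). Against input, 13 of the 37 were higher (35.1%, beside 40.8%) and 2 lower (5.41%, beside 42.6%) in p-UPF1 libraries. The summed level of 5 B cell markers was 2087 to 2165 CPM (counts scaled by library size) for p-UPF1, 2346 to 2432 for IgG and 3041 to 3061 for input, T cell and myeloid marker sums stayed under 1 CPM, and the NK cell and erythroid markers were at 0. The part of the B cell marker differences in the results below was not tested.

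As a class, the members were most abundant in the IgG precipitates. Their summed counts were 83.7, 75.9 and 77.0 unscaled CPM (counts over the library total) in input A, B and C (letters of the count columns, which only name the libraries). In IgG libraries A, B and C the sums were 401.4, 311.5 and 277.3, and in p-UPF1 libraries A, B and C they were 114.3, 89.5 and 96.0. Every IgG library thus stood above every p-UPF1 library, and every p-UPF1 library above every input library. C/D box snoRNAs summed to 59.9 ± 9.43 unscaled CPM in p-UPF1, 203 ± 42.5 in IgG and 43.4 ± 2.97 in the input (SD, n = 3), and H/ACA box snoRNAs to 39.8 ± 3.40, 126 ± 20.9 and 35.1 ± 1.58 in the same order. By the study's methods, the input was a part of the cell lysate, and the rest was incubated with p-UPF1 antibody or IgG. These values are shares of a library, so the amount of RNA that each antibody recovered is not known from them.

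**Figure D1:**
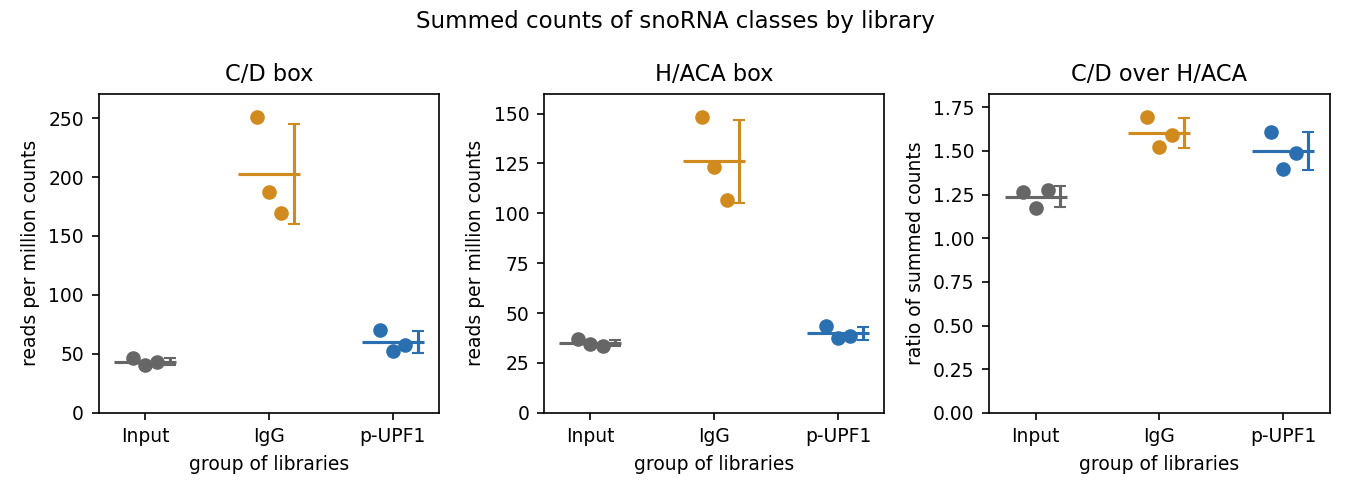
Summed counts of C/D box and H/ACA box snoRNAs in unscaled CPM, and the ratio of both sums, in the 3 input, 3 IgG and 3 p-UPF1 libraries (points; horizontal line, mean; error bar, SD). C/D box sums averaged 59.9 CPM in p-UPF1, 203 in IgG and 43.4 in input libraries, and the ratio was above 1 in every library.

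Relative to H/ACA box snoRNAs, C/D box snoRNAs took more of the reads in both precipitates than in input. The ratio of summed C/D box to summed H/ACA box counts was 1.27, 1.17 and 1.28 in the input libraries, 1.69, 1.52 and 1.59 in the IgG libraries and 1.61, 1.39 and 1.49 in the p-UPF1 libraries. On the log2 scale the mean ratio was 0.37 higher in IgG and 0.27 higher in p-UPF1 than in input libraries, without overlap of either with input. It was 0.10 apart between p-UPF1 and IgG libraries (-0.10), whose ranges overlapped. This last difference turned to 0.15 with class medians of log2 CPM, and was -0.06 without IgG A, -0.15 without p-UPF1 A and -0.05 without p-UPF1 B. No test was made on these sums over chosen members, and the ratio is one of read counts that are not corrected for length. With Snord22 and Snora73a, the members of most counts, left out, the differences from input were 0.28 for IgG and 0.16 for p-UPF1.

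The IgG precipitate was compared with input first, as the control for RNA that any antibody on beads brings down. Compared with input, 57 of the 65 tested members were higher in IgG libraries (87.7%) and 0 were lower, by edgeR quasi-likelihood tests with Benjamini-Hochberg adjustment over all genes. Among all genes tested, 18.2% were higher and 34.7% lower (26.8% and 24.2% when scaled by library size alone, which left the members at 57 and 0). The count of lower members was also 0 at an unadjusted P under 0.05, with DESeq2 and with limma-voom, which called 57 and 56 members higher. The higher members comprised 39 of 44 C/D box snoRNAs, whose tested members had a median of 2.03 on the log2 scale, and 18 of 21 H/ACA box snoRNAs, with a median of 1.48. The median of all genes tested was -0.10. Over the whole list of 123, irrespective of the filter, the mean CPM was higher in IgG than in input for 95 members, lower for 9 and equal for the others. A fit without the filter called 62 of 106 members higher and 0 lower. Of all 20210 genes in that fit, 16.3% were higher and 17.3% lower.

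Snord22, which is needed for the maturation of small-subunit rRNA, had the most reads of all members. It stood at 10.3, 8.35 and 9.43 CPM (here and below scaled by the trimmed mean of M values) in p-UPF1, 36.6, 32.0 and 27.3 in IgG and 4.14, 2.67 and 3.31 in input libraries. The 3 groups did not overlap, with IgG highest and input lowest. Its log2 fold change of IgG over input was 3.22 (SE 0.15, edgeR adjusted P 1.38e-10), a 9.33-fold difference. Snord87, a methylation guide, followed the same order for IgG and input, with 0.337, 0.451 and 0.272 CPM in p-UPF1, 6.59, 4.39 and 4.46 in IgG and 0.608, 0.454 and 0.917 in input libraries. Here the p-UPF1 libraries lay lowest, though only just below the input. Its log2 fold change of IgG over input was 2.96 (SE 0.29), in a member that passed the filter only through the IgG libraries.

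Snord34, encoded in an intron of Rpl13a, was also among the C/D box snoRNAs with the highest values at a mean of 1 CPM or more, with a log2 fold change of IgG over input of 3.07 (SE 0.31). Of the H/ACA box snoRNAs, Snora44, Snora16a and Snora64 stood highest, at 2.98, 2.62 and 2.53. Snora73a, which takes part in early cleavage of precursor rRNA, had 5.14, 4.79 and 5.30 CPM in p-UPF1, 19.0, 19.5 and 16.7 in IgG and 4.62, 4.34 and 3.77 in input libraries. Its IgG libraries lay far above both other groups, and its log2 fold change of IgG over input was 2.11 (SE 0.12, edgeR adjusted P 1.08e-09). At the lower end of the members called were Snora68 (0.80, SE 0.25), Snora17 (0.79, SE 0.24), Snora28 (0.97, SE 0.34) and Snora52, whose libraries overlapped (0.75, SE 0.28, edgeR adjusted P 0.0341). The call of Snora52 was lost with limma-voom (adjusted P 0.0521) and without any one input library, IgG A, IgG B or p-UPF1 C (edgeR adjusted P 0.0511 to 0.118). Snora28 lost its call without input A, input B or IgG B, and Snora68 without input A, input C or IgG A (0.50). The 8 members not called were Snord104, Snord95, Snord53, Snord14d, Snord17, Snora34, Snora5c and Snora74a, with log2 fold changes from 0.05 to 1.16. Of these, Snord53, Snord14d, Snora34 and Snora5c are named outside the rule for named members, after their values were seen.

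**Figure D2:**
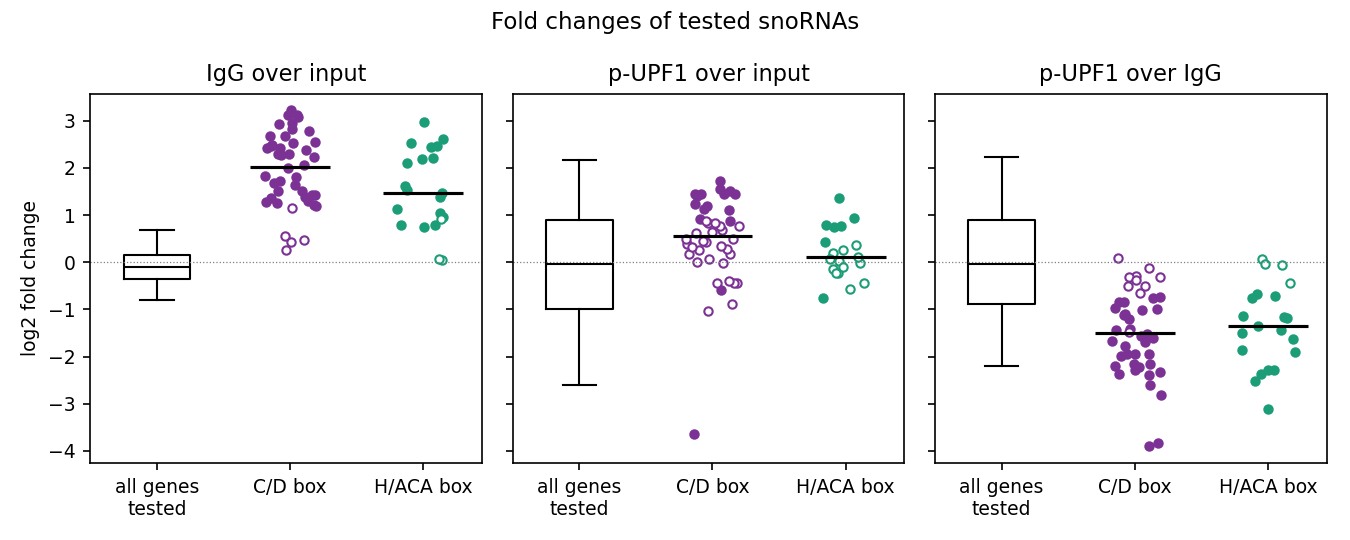
Log2 fold changes of the 44 tested C/D box and 21 tested H/ACA box snoRNAs in the 3 comparisons (filled points, adjusted P under 0.05; open points, above it; horizontal line, median), beside all 13129 genes tested (box, quartiles and median; whiskers, 5th to 95th percentile). Members lie above most genes for IgG over input and 63 of the 65 lie below 0 for p-UPF1 over IgG, with medians of -1.50 for C/D box and -1.36 for H/ACA box snoRNAs in the last panel.

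The next comparison set the p-UPF1 precipitate against its antibody control. None of the tested snoRNAs was called higher in the p-UPF1 precipitate, and 51 of the 65 tested members were lower (78.5%), comprising 34 C/D box and 17 H/ACA box snoRNAs. Of all genes tested, 40.4% were higher and 42.2% lower. The count of higher members was 0 in edgeR, also at an unadjusted P under 0.05, and 0 in DESeq2 and in limma-voom, each of which called 48 members lower. The median log2 fold change was -1.50 over the tested C/D box and -1.36 over the tested H/ACA box snoRNAs, against -0.03 over all genes tested. Over the full list of 123, the mean CPM was lower in p-UPF1 than in IgG libraries for 90 members and higher for 12. A fit without the low-count filter called 56 of 106 lower and 0 higher. Of all 20210 genes in that fit, 27.7% were lower and 28.2% higher.

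The members with the lowest values were both C/D box methylation guides. Snord104 had 0.421, 0.542 and 0.0453 CPM in p-UPF1, 7.23, 5.41 and 2.82 in IgG and 4.50, 3.78 and 4.48 in input libraries. IgG and input overlapped, and the p-UPF1 libraries, with only 10, 12 and 1 raw counts, lay below both. Against IgG, its log2 fold change was -3.90 (SE 0.43). Snord87 stood 14.3-fold lower than in IgG libraries (log2 fold change -3.84, SE 0.32). Neither passed the filter through p-UPF1 libraries, so the filter favoured this direction for both. Next in order was Snora44, with 1.22, 0.677 and 0.771 CPM in p-UPF1, 10.4, 8.37 and 4.67 in IgG and 0.933, 1.06 and 0.968 in input libraries. Its p-UPF1 and input libraries overlapped, both below all IgG libraries, and its log2 fold change over IgG was -3.12 (SE 0.30, edgeR adjusted P 5.63e-08).

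Snord47, one of several snoRNAs in introns of Gas5, had 3.20, 2.89 and 2.49 CPM in p-UPF1, 16.5, 14.7 and 14.3 in IgG and 2.11, 2.52 and 2.50 in input libraries. The IgG libraries stood apart from the other two groups, which overlapped. It was lower than in IgG libraries by 5.27-fold (log2 fold change -2.40, SE 0.13, edgeR adjusted P 4.28e-11). Snord32a (-2.82), Snord12 (-2.59), Snora16a (-2.51), Snora70 (-2.37) and Snord100 (-2.34) were likewise lower, as were Snora73a (-1.85, SE 0.11), Snord22 (-1.77, SE 0.13) and Snora61 (-1.63, SE 0.15). Among the called members of at least 1 CPM with the smallest differences were Snord55 (-0.74), Snord69 (-0.83) and Snord68 (-0.98) of the C/D box class and Snora7a (-0.68), Snora65 (-0.72) and Snora3 (-0.76) of the H/ACA box class. Snord55 lost its call without IgG A (-0.31, edgeR adjusted P 0.25) and without any one p-UPF1 library (edgeR adjusted P 0.0687 to 0.0779), and Snord69 without IgG A (-0.52, edgeR adjusted P 0.051).

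A further 14 tested members, 10 C/D box and 4 H/ACA box snoRNAs, did not pass the test against IgG. Snord96a, a C/D box snoRNA in an intron of Rack1, had 8.59, 5.55 and 6.71 CPM in p-UPF1, 9.09, 5.92 and 7.64 in IgG and 3.20, 3.78 and 2.70 in input libraries. Both precipitates overlapped and lay above input. Its log2 fold change over IgG was -0.11 (SE 0.18, edgeR adjusted P 0.566). Snora68, a pseudouridylation guide, had 3.75, 2.75 and 3.90 CPM in p-UPF1, 4.94, 2.60 and 3.28 in IgG and 1.74, 2.52 and 1.99 in input libraries, again with overlapping precipitates above input. The log2 fold change of Snora68 over IgG was -0.05 (SE 0.24, edgeR adjusted P 0.838). The 3 tested copies of the Snord14 family in Hspa8, which act in small-subunit rRNA processing, had values of 0.08 (Snord14d), -0.32 (Snord14e) and -0.37 (Snord14c), and reads of such lettered copies can be split in uncertain ways. Snord15b (-0.50), Snora31 (-0.44) and Snord17 (-1.48, SE 0.73) also missed the threshold.

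**Figure D3:**
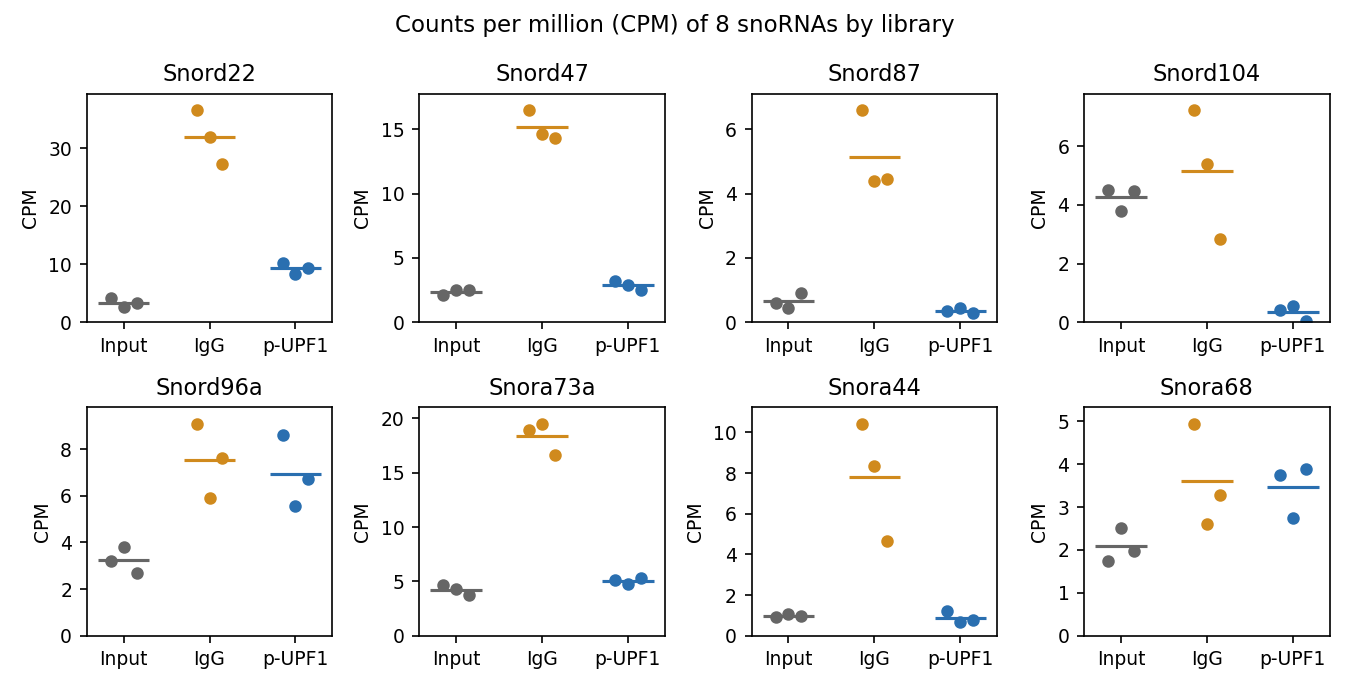
CPM of 8 snoRNAs in each of the 3 input, 3 IgG and 3 p-UPF1 libraries (points; horizontal line, mean), each panel with its own axis from 0. The IgG libraries lie highest for Snord22, Snord47, Snord87, Snora73a and Snora44, p-UPF1 lies lowest for Snord104, and both precipitates overlap above input for Snord96a and Snora68.

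Against input, some snoRNAs were called higher in p-UPF1 libraries and very few were called lower. Of the 65 tested members, 20 were higher than input (30.8%) and 3 were lower (4.62%), beside 40.8% higher and 42.6% lower among all genes tested. The other 42 were not called, and by sign 48 of the 65 lay above 0 and 17 below. The median SE of the tested members was 0.35, and the part of their low counts in these shares was not tested. The higher members were 14 C/D box and 6 H/ACA box snoRNAs, and each had a lower or an uncalled value against IgG. Median log2 fold changes over the tested members were 0.56 for C/D box and 0.11 for H/ACA box snoRNAs, against -0.03 for all genes. Over all 123, the mean CPM was higher in p-UPF1 than in input libraries for 61 members and lower for 43. The comparison shares its p-UPF1 libraries with the one against IgG and its input libraries with that of IgG against input.

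Snord55, a C/D box snoRNA, had 1.81, 1.72 and 1.72 CPM in p-UPF1, 4.46, 2.09 and 2.26 in IgG and 0.568, 0.656 and 0.357 in input libraries. The 3 groups did not overlap, in the order seen for Snord22. Its log2 fold change over input was 1.71 (SE 0.37). Snord55 and Snord58b (1.52) did not pass the filter through input libraries, which favoured this direction. Among the members that passed in every group, Snord22 (1.45, SE 0.16), Snord69 (1.45), Snord96a (1.11, SE 0.20), Snord83b (0.93) and Snord49a (0.87) were also higher than input, as were Snora64 (1.36, SE 0.34), Snora31 (0.94), Snora41 (0.78), Snora3 (0.78), Snora68 (0.74, SE 0.25) and Snora65 (0.42, SE 0.18). Snora41 and Snora65 lost their calls with library size alone (edgeR adjusted P 0.0641 and 0.0652) and with limma-voom (adjusted P 0.0822 and 0.0651), which each left 4 H/ACA box snoRNAs higher. All of these H/ACA box snoRNAs but Snora64 lost the call without at least 1 single library, as did Snord83b without p-UPF1 A or p-UPF1 C. In contrast, Snord47 (0.28, SE 0.17), Snora73a (0.25, SE 0.13), Snora16a (0.11), Snora70 (0.07), Snora61 (-0.02) and Snora44 (-0.13) did not pass the test against input.

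The 3 members below input were Snord104 (-3.63, SE 0.44), which passed the filter only through IgG and input libraries, Snord12 (-0.58, SE 0.22, edgeR adjusted P 0.0244) and Snora52 (-0.76, SE 0.32, edgeR adjusted P 0.0363). Snord12 had 3.16, 2.62 and 3.67 CPM in input and 2.74, 1.67 and 1.86 in p-UPF1 libraries, with overlap. Snora52 had 1.78, 1.46 and 1.43 CPM in input and 1.14, 0.767 and 0.861 in p-UPF1 libraries, without overlap. Single libraries decided these small counts. The call of Snord12 was also lost with limma-voom (adjusted P 0.0516), and that of Snora52 with DESeq2 (adjusted P 0.0572), without the filter and without p-UPF1 B. The 2 lower C/D box snoRNAs became 1 without input A, without input C, without p-UPF1 B or without p-UPF1 C, and the count of lower H/ACA box snoRNAs fell from 1 to 0 without any one of the 3 input libraries or without p-UPF1 C, while 2 were called without IgG A or without IgG C. The 6 higher H/ACA box snoRNAs became 3 without any one input library and 2 without p-UPF1 A.

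By the combined criterion that the study's methods set for bound RNAs, at least 1 log2 unit above IgG and 2 above input with adjusted P under 0.05 for both, 0 of the 65 tested members qualified, against 820 of all 13129 genes tested (6.25%). None came near its first condition in edgeR, since the highest log2 fold change over IgG among tested members was 0.08 (Snord14d). No member met the condition over IgG at an unadjusted P under 0.05 either, nor with DESeq2 or limma-voom.

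Medians differed between members of different kinds of host gene. Of the 123 members, 87 lay within a protein-coding gene on the same strand, 32 within a long noncoding RNA (lncRNA) gene and 4 (Snord118, Snord13, Snord89 and Scarna2) in neither. All 18 tested members with a lncRNA host were lower in p-UPF1 than in IgG libraries, by a median of -1.92 on the log2 scale. One of them, Snora74a (-1.14, edgeR adjusted P 0.0339), had overlapping groups and lost its call with DESeq2 (adjusted P 0.0558), with limma-voom (adjusted P 0.0759), in the edgeR fit of only the 2 groups (adjusted P 0.0531) and without IgG B (-0.47, edgeR adjusted P 0.333), without input B or C or without any one p-UPF1 library (edgeR adjusted P 0.0505 to 0.103). Of the 47 with a protein-coding host, 33 were lower, with a median of -1.10. Of all genes tested, 42.2% were lower in that comparison. Against input, 2 of the 18 lncRNA-hosted members were higher (11.1%) and 2 lower (11.1%), with a median of -0.07. Of the 47 others, 18 were higher (38.3%) and 1 lower (2.13%), with a median of 0.64. The shares over all genes were 40.8% and 42.6%, so the higher share of the protein-coding group was near that of all genes. The same order was seen within both classes, with medians over input of 0.25 and 0.76 for C/D box and -0.13 and 0.28 for H/ACA box snoRNAs in lncRNA and protein-coding hosts. Some members did not pass the filter in every group. Among those with a lncRNA host, Snord87 and Snord104 did not pass through p-UPF1 libraries, which favoured lower values against IgG. Among those with a protein-coding host, Snord55, Snord58b and Snord34 did not pass through input libraries, which favoured higher values over input. Several members share a host, so they are not independent, and the difference between the kinds of host was not tested.

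Many of the protein-coding hosts encode ribosomal proteins, and several of the lncRNA hosts (the Snhg genes) are named for the snoRNAs they hold. For 63 tested members the host was tested too (44 hosts). In the comparison of IgG with input, every one of the 63 members had a higher log2 fold change than its host, by 1.88 at the median, and the median host stood at -0.15. The 63 include members that passed the filter only through IgG, or only through IgG and p-UPF1 libraries, which favoured this direction for them. Members that passed in every group were not set against their hosts separately. Between p-UPF1 and IgG libraries, 40.4% of all genes tested were higher and 42.2% lower (median -0.03). The shares and the median of the protein-coding hosts lay further from these values than those of the lncRNA hosts, a difference that was not tested. Of the 34 protein-coding hosts, 26 were lower and 6 higher (median log2 fold change -2.40), and 33 of their 47 snoRNAs lay above the host value, by 1.14 at the median. Of the 10 lncRNA hosts, 3 were lower and 4 higher (median 0.14), near the shares of all genes, and 15 of their 16 snoRNAs lay below the host, with a median difference of -2.11. Snora74a in Snhg4 was the exception.

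**Figure D4:**
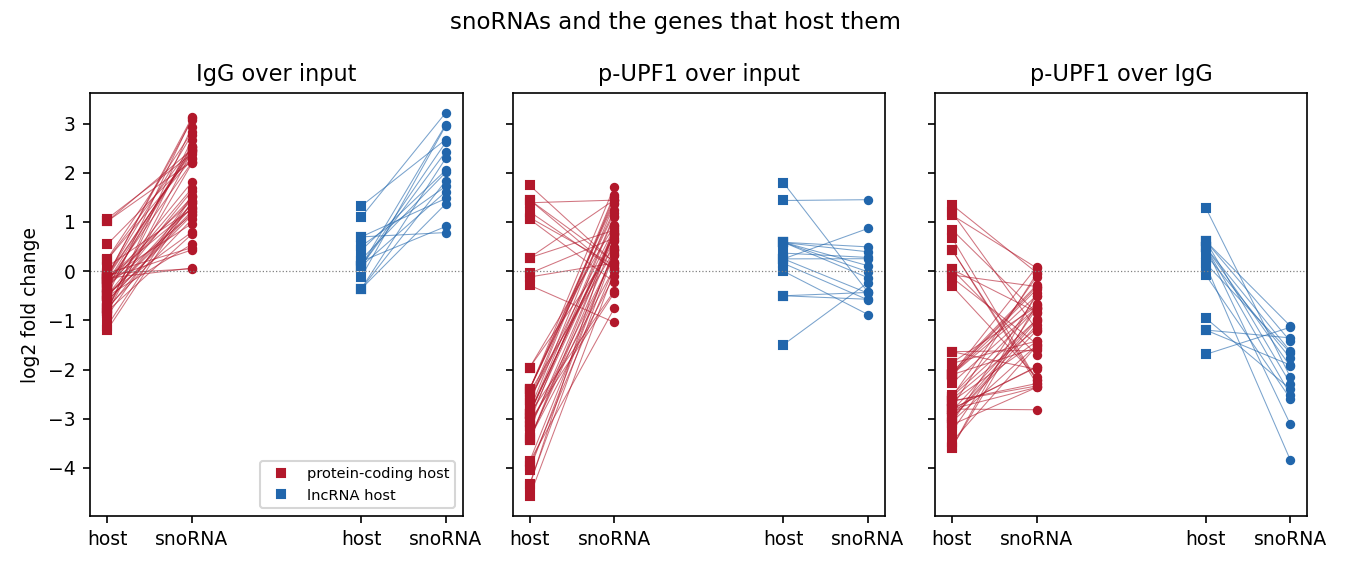
Log2 fold changes of 63 snoRNAs (circles) joined to those of the genes that host them (squares), for 34 protein-coding hosts (red) and 10 lncRNA hosts (blue), in the 3 comparisons. Every line rises for IgG over input, whereas for p-UPF1 over IgG 15 of 16 lines fall from lncRNA hosts and 33 of 47 rise from protein-coding hosts.

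Values of single hosts follow. Snhg1, the host of Snord22, was at 329 ± 7.48 CPM in p-UPF1, 260.0 ± 39.1 in IgG and 121.6 ± 6.23 in the input (SD, n = 3), and was higher in p-UPF1 than in IgG libraries (log2 fold change 0.34, edgeR adjusted P 0.000513), whereas Snord22 was lower (-1.77). Snhg6 did not pass the test against IgG (0.12, edgeR adjusted P 0.107), and its snoRNA Snord87 stood at -3.84. Gas5 was lower than IgG by 0.96 on the log2 scale (-0.96), and Snord47 stood at -2.40. Conversely, Rack1 mRNA, which encodes a scaffold protein of the ribosome, was at 185 ± 3.17 CPM in p-UPF1, 1086 ± 2.39 in IgG and 1544 ± 19.3 in input libraries, a log2 fold change of -2.55 over IgG, while Snord96a stood at -0.11. Reads of an intronic snoRNA and of unspliced host RNA are not fully separable in gene counts.

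SnoRNAs of one host also differed among themselves. Within Snhg12, which was higher in p-UPF1 than in IgG libraries (log2 fold change 0.49), the values over IgG were -3.12 for Snora44, -2.51 for Snora16a, -1.94 for Snord99 and -1.63 for Snora61. For IgG over input the same snoRNAs stood at 2.98, 2.62, 2.43 and 1.62, and over input the p-UPF1 libraries gave -0.13, 0.11, 0.49 and -0.02, none of which passed the test. Within Rpl13a, Snord32a stood at -2.82, Snord33 at -2.36, Snord35a at -1.95 and Snord34 at -1.94 over IgG. Of this group, Snord34, which passed the filter only through the precipitates, was higher than input in p-UPF1 libraries (1.13) and Snord32a was not called (-0.40, edgeR adjusted P 0.255). Within Rack1, Snord95, which did not pass the filter through p-UPF1 libraries, stood at -0.99 over IgG and Snord96a at -0.11. The call of Snord95 as lower was lost with DESeq2 (adjusted P 0.0545), without the filter, without IgG A (-0.70, edgeR adjusted P 0.117), without p-UPF1 A and without p-UPF1 C. Differences between snoRNAs of one host were not tested, and Snord99, Snord33 and Snord35a were named for their host after their values were seen.

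The 9 scaRNAs were all detected, but none had enough counts to be tested. Scarna13, in Snhg10, had 0, 0 and 1 raw counts in p-UPF1, 21, 4 and 4 in IgG and 4, 2 and 1 in input libraries, so 1 IgG library held most of its reads. Scarna10 had 1, 0 and 1 counts in p-UPF1, 8, 4 and 3 in IgG and 2, 1 and 0 in input libraries. In CPM, every IgG library lay above every other library for both. Scarna2, which lies in no host, had 1, 1 and 0 counts in p-UPF1, 6, 4 and 2 in IgG and 0, 4 and 0 in input libraries. Scarna17 went the other way, with counts in input (0, 3 and 2) and p-UPF1 libraries (2, 1 and 0) and 0 in each IgG library. Scarna6 had 12 counts in all, Scarna8 had 8, Scarna9 had 2, and Scarna3a and Scarna3b had 1 each.

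Several snoRNAs of precursor rRNA processing were at or near 0. Snord13 and Snora73b, a near copy of Snora73a with which its reads may be confused, had 0 counts in every library, and Snord118 had 2 counts in a single IgG library. A count of 0 allows up to 3 counts in a library, or 0.120 to 0.173 unscaled CPM, which covers counting error only. Snord15a had 12 counts over all libraries against 190 for its relative Snord15b in the same host, Rps3. Snord17, a large C/D box snoRNA in Snx5, had the fewest counts of all tested members (65).

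The mRNAs of proteins that work with snoRNAs were measured in the same libraries. Of 26 such genes, all tested, 6 were higher and 19 lower in p-UPF1 than in IgG libraries (23.1% and 73.1%, beside 40.4% and 42.2% of all genes; median log2 fold change -0.72), and 7 were higher and 16 lower than input (26.9% and 61.5%, beside 40.8% and 42.6%; median -0.77). Each C/D box core protein gene was lower than IgG, with -2.09 for Fbl (the methyltransferase fibrillarin), -1.49 for Snu13, -0.71 for Nop58 and -0.30 for Nop56. Of the H/ACA box core protein genes, Nop10 (-2.20), Nhp2 (-1.63) and Gar1 (-0.76) were lower, and Dkc1, which encodes the pseudouridine synthase dyskerin, was higher (0.41). Of 13 genes of snoRNP assembly and Cajal bodies, 4 were higher than IgG and 9 lower (median -0.73). The 4 were Coil (coilin, 1.01), Wrap53 (which binds scaRNAs, 0.91), Nolc1 (0.63) and Tgs1 (a cap methyltransferase, 0.34). The 9 ran from Ruvbl1 (-1.74) and Ruvbl2 (-1.50), the ATPases of the assembly machinery, and Naf1 (-1.27) to Rpap3 (-0.25). Nat10, an acetyltransferase that works with Snord13, was higher as well (0.78). In IgG compared with input, 6 of the 26 were higher and 14 lower (23.1% and 53.8%, beside 18.2% and 34.7% of all genes), with a median of -0.17 that was near the median of all genes, unlike the snoRNAs themselves.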

How the data were processed

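RNA immunoprecipitation sequencing was analysed in 9 libraries, 3 each of input, IgG and p-UPF1. The authors deposited raw read counts, with genes given by NCBI Gene number. The submitters' processing notes name cutadapt, HISAT2, featureCounts and mm10, and the kit was directional. The study's methods give unstranded mapping for its RNA-seq and do not state it for these libraries, so genes on opposite strands may share reads. The column names gave each library's group. Symbols and positions came from RefSeq GRCm38.p6, which named 25275 of 27179 genes.

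Counts were fitted with edgeR 4.0.16 in R 4.3.3 (TMM scaling, filterByExpr with a minimum count of 10, all 9 libraries, 6 residual degrees of freedom), with two-sided quasi-likelihood tests and Benjamini-Hochberg adjustment over 13129 genes. Adjusted P under 0.05 was a call. DESeq2 1.42.0 and limma-voom (limma 3.58.1) were alternatives. CPM in single-gene sentences and in marker sums is TMM-scaled, and class sums use library totals. Standard errors are the log2 fold change divided by the root of F. The methods speak of independent biological replicates, but the labels name no separate cultures or animals, so P values measure the spread between these libraries. Reads carried no molecular identifiers.

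The members and gene lists were chosen with earlier results of these data known. Named members were a fixed list of known snoRNAs, all scaRNAs, the 5 of each class with the most counts, and in each comparison and class the 3 highest and 3 lowest called members with a mean of at least 1 CPM and no overlap between groups.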

Additional observations from a re-analysis of the deposited data

How the results depend on the processing

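In all 17 alternative fits (3 other scalings, no low-count filter, DESeq2, limma-voom, only the 2 groups compared, each library left out, and a replicate block) 0 members were higher in p-UPF1 than in IgG libraries, 0 were lower in IgG than in input and 0 met the bound criterion. Other scalings moved the median log2 fold change of all genes by over 0.1: library size alone by -0.16 for p-UPF1 over IgG and by 0.12 for IgG over input, an input library as TMM reference by 0.11 and fits of only the 2 groups by 0.11 for IgG over input. Leaving out single libraries gave 27 to 35 C/D box and 17 to 20 H/ACA box snoRNAs lower than IgG, 38 to 40 and 16 to 20 higher in IgG than in input, 10 to 16 and 2 to 6 higher in p-UPF1 than in input, and 1 to 3 and 0 to 2 lower than input. Without members that have a lettered copy (27 of 123, 17 tested), 8 instead of 14 C/D box snoRNAs passed as higher for p-UPF1 over input and 24 instead of 39 for IgG over input, since fewer were counted. For p-UPF1 lower than input, limma-voom gave 1 C/D box snoRNA, and the count of H/ACA box snoRNAs was 2 with library size alone and with only the 2 groups, and 0 without the filter and with DESeq2 (the cause was not tested). The difference in log2 ratio of C/D box to H/ACA box counts between p-UPF1 and IgG was -0.10 and turned to 0.15 with class medians of log2(CPM + 0.1). Between p-UPF1 and input it was 0.27, with 0.48 from class medians and 0.16 without the members of most counts. Between IgG and input it was 0.37, with 0.28 without those members. Leaving out single libraries gave -0.15 to -0.05, 0.22 to 0.32 and 0.33 to 0.41. The cause of these shifts was not tested. Over these fits, values of named members lost a call 70 times and gained one 23 times. Signs turned 19 times among the values of named members, none of which passed the test as reported. For p-UPF1 over input these were Snora61 (0.028, 0.0061, 0.12, 0.028 and 0.0088 with DESeq2 size factors, an input reference, no filter, DESeq2 and only the 2 groups, and -0.094 to 0.035 without single libraries, above 0 without input A, p-UPF1 B or p-UPF1 C), Snora70 (-0.062 to 0.14, below 0 without p-UPF1 A), Snora16a (-0.23 to 0.28, below 0 without p-UPF1 C) and Snora44 (-0.42 to 0.024, above 0 without p-UPF1 B). For IgG over input they were Snord17 (-0.0069 with limma-voom, and -0.060 to 0.96 without single libraries) and Snord104 (-0.059 to 0.55), both below 0 without IgG A. For p-UPF1 over IgG they were Snord14e (-0.66 to 0.059, above 0 without IgG C), Snord96a (-0.28 to 0.040) and Snora68 (-0.23 to 0.24), the last pair above 0 without IgG A or p-UPF1 B. Of the members, 11 overlap an exon of another counted gene, 3 of them tested. A replicate block on the column letters A to C, added after seeing the data, left 4 residual degrees of freedom and gave 33 C/D box and 17 H/ACA box snoRNAs lower than IgG, 40 and 18 higher in IgG than in input, 15 and 6 higher in p-UPF1 than in input, and 2 and 2 (instead of 1) lower than input. The deviations of libraries of the same letter from their group means correlated at -0.005 to 0.054, against -0.056 to 0.022 for different letters. Libraries of letters A and B correlated best with their own letter, and those of letter C did not. The methods divide a lysate into input and precipitates, but no source used here says whether a letter marks a shared lysate. The letters were therefore not taken as pairs in the reported fit. Depth limits what can be said of the 58 members that were not tested.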

Other observations

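Other short noncoding RNA genes of the table were few among the genes tested. Of 674 genes matched by symbol (spliceosomal RNA, microRNA precursor and related genes), 20 were tested, and they include the host transcripts Mir22hg and Mir17hg. Against IgG, 1 was higher and 12 were lower in p-UPF1 libraries (median log2 fold change -1.55), against input 2 were higher and 8 lower (median -0.54), and in IgG compared with input 10 were higher and 1 lower (median 0.74), in edgeR. As shares of the 20, 5% were higher and 60% lower than IgG (40.4% and 42.2% of all genes), 10% and 40% higher and lower than input (40.8% and 42.6%), and 50% and 5% for IgG over input (18.2% and 34.7%), so the share below input was near that of all genes. Rn7sk, the RNA that holds the elongation factor P-TEFb inactive, stood at 0.209 ± 0.210 CPM in p-UPF1, 3.27 ± 0.597 in IgG and 0.379 ± 0.321 in the input (SD, n = 3). Rpph1, the RNA subunit of ribonuclease P, was highest in IgG libraries at 1.05 ± 0.465 CPM, followed by 0.277 ± 0.108 for input and 0.0301 ± 0.0521 for p-UPF1. Outside IgG, the means of both RNAs lay under the 0.492 CPM of the low-count filter, which they passed where they were high, so no fold or test is given for them. The same held for the means of Mir3060 and Mir1839. For such genes the filter favoured higher values in IgG libraries and lower values against IgG. The counts, medians and shares over the 20 include them and describe these 20 genes only. Mir425 was the member of this list that was higher in p-UPF1 than in IgG libraries (1.43, edgeR adjusted P 0.000718).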
